A study of Mus musculus with 32 samples.

Results

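The RPE moves salt and water from the retina to the choroid, and 9 genes of that transport were followed in RPE from the eyes of rd1 mice. The 9 genes are Best1, Kcnj13, Kcne2, Clcn2, Slc12a2, Atp1b1, Slc4a4, Aqp1, and Trpm3, found by their Ensembl identifiers among the 34453 rows of the count table. They were chosen as genes of RPE ion channels and fluid transport, with earlier results of these data known. Each of the 9 passed the filter on low counts in every comparison.

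Both eyes of each mouse were injected under the retina. The Nrf2 eye received the vector AAV-Best1-Nrf2 mixed with a GFP vector, and the control eye received only the GFP vector, AAV-Best1-GFP, so that control eyes also carried a vector with the human Best1 promoter, which is active in the RPE. The transgene was the human cDNA of Nrf2, a transcription factor of the antioxidant response, delivered with AAV8. By the methods, the GFP vector had another capsid, and Nrf2 eyes received a higher total dose of vector than control eyes. Vector dose thus cannot be told apart from Nrf2 in the comparison of the eyes. The rd1 mice are of the FVB/N strain and carry a mutation of Pde6b, a rod phosphodiesterase subunit, by which rods die early. RPE RNA was collected from the eyecup after removal of the retina at P20 (7 mice) and at P40 (9 mice), which gave 32 libraries. The labels name all 16 mice as rd1, whereas the methods name 4 rd1 and 5 CD1 pairs at P40. The strain of the P40 mice thus rests on the labels. For P20, the methods name fewer pairs than the 7 that are labelled.

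The RPE is an epithelium whose apical sodium pump, Na/K-ATPase, sets up the gradients for all other transport. Apical Na-K-2Cl cotransport and Na-HCO3 cotransport bring ions into the cell, potassium channels of the apical membrane return potassium to the subretinal space, chloride leaves through channels of the basolateral membrane, and water follows. This absorption of fluid keeps the retina attached to the RPE, and mutations of BEST1 and of KCNJ13 are known causes of inherited retinal disease.

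The total count per library was between 16548332 and 50542797. The transgene had 1082 to 10438 CPM (counts relative to a common library size, after normalization) in Nrf2 eyes and 0 to 1098 CPM in control eyes. The library labelled control of P20 mouse 3, with 1098 CPM of the transgene, and that labelled Nrf2 of P20 mouse 4, with 1082 CPM, went against the transgene levels of their groups. The counts of these libraries differed by 4.05 times what sampling noise gives, against at least 12.8 times for every other of the 496 pairs of libraries, so they may not be independent. Values without both mice are given below where they end a call. The 12 RPE markers summed to 12131 CPM or more in every eye. The libraries also held RNA of other cells of the eyecup and of retinal cells left after the retina was removed. A lower level of a gene can come from fewer cells of a type in the eye, from fewer of them carried into the sample, or from less RNA per cell. These cannot be told apart in such samples.

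The promoters of the genes on which the results turn are given first, as the 250 bases before the RefSeq start, from the GRCm38.p6 assembly, 5′ to 3′ on the strand of the gene. RefSeq promoters were found for 8 of the 9 genes, and not for Slc12a2. Capitals mark a match, on either strand, to one of 3 motifs that were searched: TGACNNNGC, the core of the antioxidant response element that Nrf2 binds, CATGTG, an E-box of the kind bound by MITF, and TAATCC, the motif of OTX2 and CRX. The motifs share no bases with each other in these windows. Kcne2 is shown because it was the gene that fell with Nrf2 at both ages, Best1 because the promoter of its human counterpart drove the vectors, and Kcnj13 because it rose with age and holds the remaining match.

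Kcne2, chr16:92292139-92292388, plus strand: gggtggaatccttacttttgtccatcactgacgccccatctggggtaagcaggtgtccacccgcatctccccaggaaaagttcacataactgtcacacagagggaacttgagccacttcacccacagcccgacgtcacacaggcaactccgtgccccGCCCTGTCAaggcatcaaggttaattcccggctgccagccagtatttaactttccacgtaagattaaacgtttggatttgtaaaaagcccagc

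Best1, chr19:10001634-10001883, minus strand: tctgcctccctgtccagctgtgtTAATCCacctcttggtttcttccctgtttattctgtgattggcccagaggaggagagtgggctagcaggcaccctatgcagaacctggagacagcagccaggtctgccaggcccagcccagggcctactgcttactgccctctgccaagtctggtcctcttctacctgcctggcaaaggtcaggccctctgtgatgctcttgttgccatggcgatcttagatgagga

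Kcnj13, chr1:87394730-87394979, minus strand: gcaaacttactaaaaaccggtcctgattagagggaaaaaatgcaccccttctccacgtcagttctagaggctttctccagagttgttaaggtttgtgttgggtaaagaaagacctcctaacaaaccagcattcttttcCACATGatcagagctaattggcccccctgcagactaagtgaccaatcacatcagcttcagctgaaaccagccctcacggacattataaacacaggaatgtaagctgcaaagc

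The Kcne2 promoter held TGACNNNGC on the reverse strand, 93 to 85 bases before the start, and 10.2% of all 32851 promoters of this length hold that motif. The Best1 promoter held TAATCC 227 to 222 bases before the start, a motif found in 6.25% of promoters. CATGTG stood in the Kcnj13 promoter on the reverse strand, 112 to 107 bases before the start, and 12.3% of promoters hold it. The other annotated Kcne2 promoter and the promoters of Clcn2, Atp1b1, Slc4a4, Aqp1, and Trpm3 held none of these letters.

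Per kilobase of the longest annotated transcript, the 9 genes fell into 3 ranges in control eyes at P20. Kcnj13, an inwardly rectifying potassium channel (Kir7.1), and Atp1b1, the beta subunit of the sodium pump, were the most abundant, with medians of 229 and 218 CPM per kb. Slc12a2 (the Na-K-2Cl cotransporter NKCC1) followed with 46.1 CPM per kb, then Trpm3 (a calcium-permeable cation channel) with 30.6, Slc4a4 (the Na-HCO3 cotransporter NBCe1) with 23.9, Aqp1 (a water channel) with 23.9, Clcn2 (a chloride channel) with 20.3, and Kcne2 (a beta subunit of voltage-gated potassium channels) with 8.64. Best1, a calcium-activated chloride channel, was lowest, with 0.737 CPM per kb.

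The levels of neighbours in this order overlapped between eyes, except that Atp1b1 (at least 120 CPM per kb) lay above Slc12a2 (at most 73.2 CPM per kb) and Kcne2 (at least 4.58 CPM per kb) above Best1 (at most 1.62 CPM per kb). With the mean transcript length in place of the longest, Atp1b1 came before Kcnj13 and the order from Slc12a2 to Clcn2 changed. In control eyes at P40, Kcnj13 was at 587 CPM per kb and Atp1b1 at 217, Trpm3 came next with 55.3, and only Best1 was below Aqp1, which had 3.89.

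**Figure D1:**
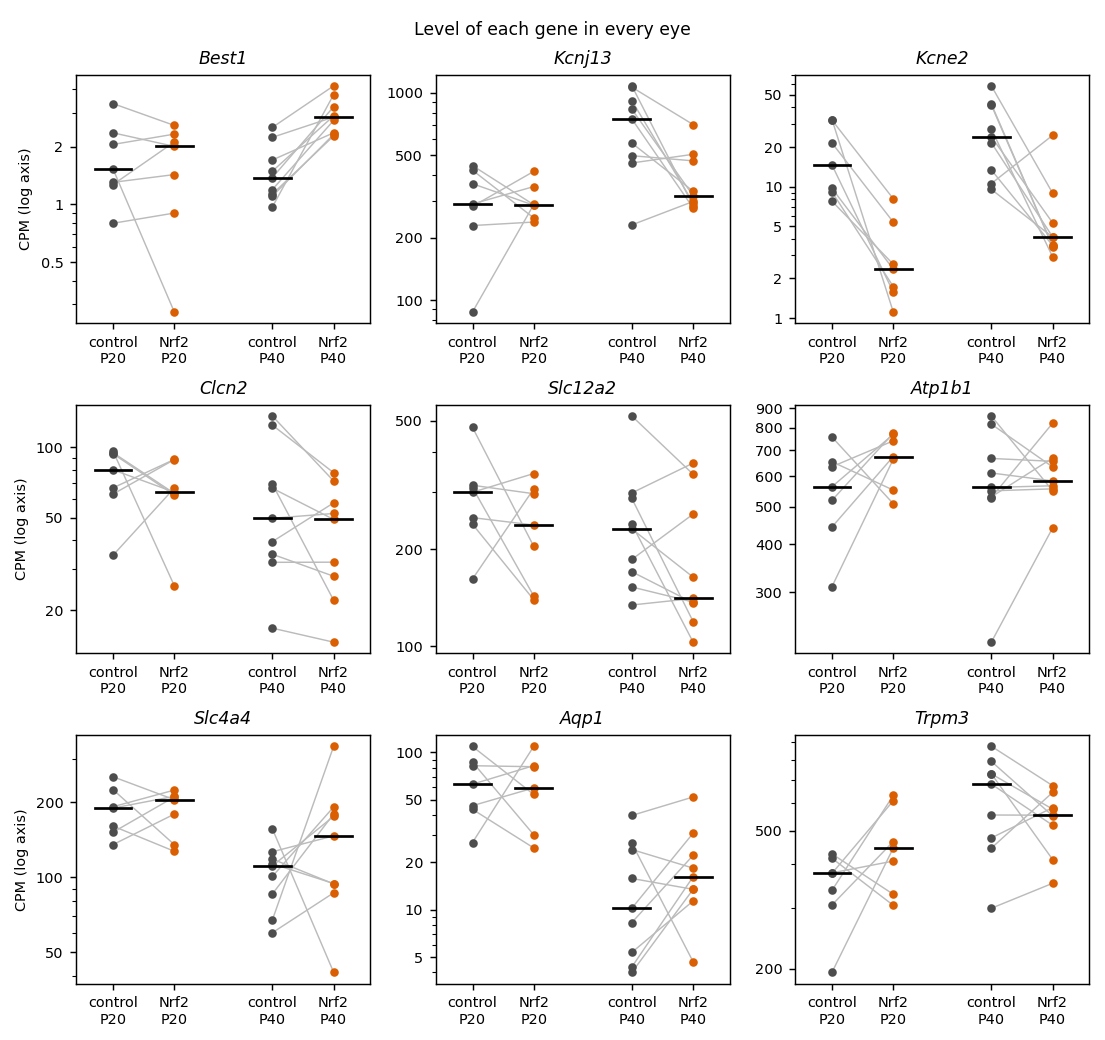
Level of each of the 9 genes in every eye, in CPM on a log axis that differs between panels, for control eyes (grey) and Nrf2 eyes (orange) at P20 and P40. Grey lines join the eyes of a mouse and black bars are medians. Kcne2 was lower in 7 of 7 Nrf2 eyes at P20 and in 8 of 9 at P40, and Aqp1 was at a median of 62.8 CPM in control eyes at P20 and 10.2 CPM at P40.

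To find whether Nrf2 in the RPE changed these genes, the eyes of each mouse were compared. Kcne2 fell at both ages, and the other 8 genes did not pass the threshold at either. At P20, 1 of the 9 genes was thus called, against 3.41% of all genes tested (0.485% lower). At P40, it was again 1 of 9, against 4.57% of all genes (1.23% lower). The median log2 change of the 9 genes was −0.14 at P20 and −0.19 at P40, and that of all genes was −0.04 and −0.03.

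Kcne2 (ENSMUSG00000039672, chromosome 16, 92292389 to 92298129) had 7.74 to 32.4 CPM (median 14.6) in control eyes and 1.11 to 8.08 CPM (median 2.36) in Nrf2 eyes at P20. The Nrf2 eye was lower in 7 of 7 mice, as for 2.58% of all genes, and 6 of the 7 Nrf2 eyes lay below every control eye. Within mice, the log2 ratio of the eyes ranged from −4.79 (mouse 1) to −1.57 (mouse 3). The log2 change, which is the log2 of the fold change fitted over all mice, was −2.56 (SE 0.40, adjusted P = 0.0150 from edgeR), a level 0.170 times that of the control eye. Without mouse 5 (adjusted P = 0.0568) or mouse 7 (0.0654) the threshold was not passed, and the log2 change was −2.57 and −2.43. Without both mouse 3 and mouse 4, Kcne2 was still called.

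At P40, Kcne2 had 9.52 to 58.4 CPM (median 23.9) in control eyes and 2.92 to 24.6 CPM (median 4.13) in Nrf2 eyes. The Nrf2 eye was lower in 8 of 9 mice, and these 8 Nrf2 eyes lay below every control eye. Kcne2 fell, with a log2 change of −2.32 (SE 0.47, adjusted P = 0.0131) and passed the threshold in all 9 fits that each left out 1 mouse. The exception was mouse 6, with 10.5 CPM in the control eye and 24.6 CPM in the Nrf2 eye. The effect of Nrf2 on Kcne2 did not differ detectably between the ages (difference 0.26 on the log2 scale, SE 0.63, adjusted P = 0.9995).

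RNA of cones, like Kcne2, was lower in the Nrf2 eye of most mice. The 8 cone markers summed to a median of 309 CPM in control eyes and 31.2 CPM in Nrf2 eyes at P20 (ranges 39.1 to 931 and 17.9 to 94.9), and to 788 and 48.7 CPM at P40 (271 to 2106 and 28.8 to 307). Each of the 8 markers was found in every group, and 2 of 8 passed the threshold as lower with Nrf2 at P20 and 8 of 8 at P40. The 10 rod markers summed to medians of 88.7 and 10.5 CPM at P20 and 108 and 16.7 CPM at P40, with 0 of 10 called lower at P20 (3 at an unadjusted P value under 0.05 in edgeR) and 2 of the 9 tested at P40.

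The cone sum was lower in the Nrf2 eye in 7 of 7 mice at P20 and 8 of 9 at P40. P40 mouse 6, in which Kcne2 was higher in the Nrf2 eye, had a cone sum of 271 CPM in the control eye and 307 CPM in the Nrf2 eye. In P20 mouse 3, whose eyes had cone sums of 39.1 and 34.7 CPM, Kcne2 was at 7.74 CPM in the library labelled control and 2.57 CPM in the Nrf2 eye. In P20 mice 2 and 6, the log2 ratio of the eyes was −1.99 and −2.01 for Kcne2 and −0.72 and −1.11 for the cone sum. For the rod sum it was 0.22 and −0.14. Over the 16 mice, the log2 differences between the eyes of Kcne2 and of the cone sum had a Pearson's r of 0.71, and those of Kcne2 and of the rod sum an r of 0.71, where both values of a point share their libraries. Across the 32 eyes, with group means subtracted, r was 0.78 for Kcne2 with the cone sum, 0.74 with the rod sum, and 0.45 with the RPE sum. It was 0.57 with the sum of inner retina markers and 0.53 with that of Muller glia markers. The part of RNA of cones or of other retinal cells in the decrease of Kcne2 was not tested. RNA was taken after removal of the retina, and the amount of retina left on each eyecup is not given. In retinas of rd1 mice, the paper reports fewer areas without cones and a small rise in the central share of cones with AAV-Best1-Nrf2.

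**Figure D2:**
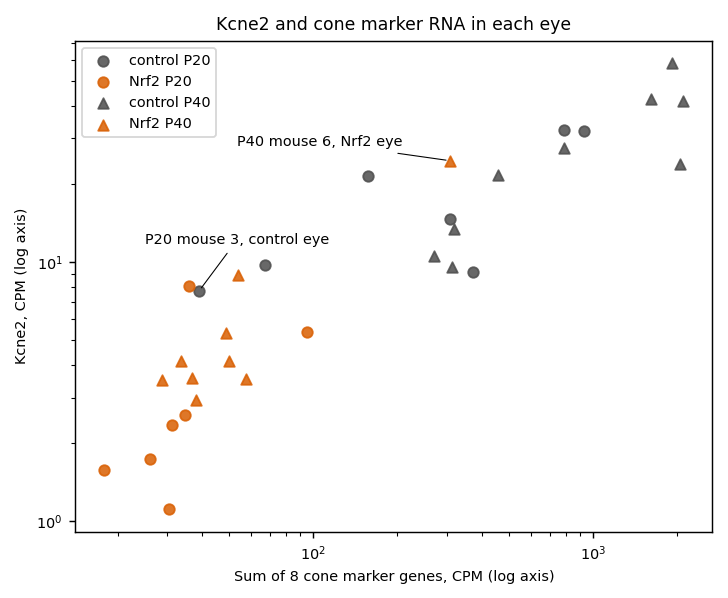
Kcne2 against the summed level of 8 cone marker genes in each of the 32 eyes, both in CPM on log axes, with control eyes in grey, Nrf2 eyes in orange, P20 as circles, and P40 as triangles. The Nrf2 eyes lie at the lower left, with cone sums up to 94.9 CPM, apart from that of P40 mouse 6 at 307 CPM and 24.6 CPM of Kcne2.

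Best1 (ENSMUSG00000037418, chromosome 19, 9985174 to 10001633) was measured on few reads, 5 to 146 per library. At P20, it had 0.798 to 3.37 CPM (median 1.53) in control eyes and 0.274 to 2.59 CPM (median 2.01) in Nrf2 eyes, with 6 of 7 Nrf2 eyes inside the range of the control eyes. The log2 change was −0.23 (SE 0.40, adjusted P = 0.806). At P40, it had 0.970 to 2.53 CPM (median 1.38) in control eyes and 2.28 to 4.18 CPM (median 2.87) in Nrf2 eyes.

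The Nrf2 eye was higher in 9 of 9 mice at P40, as for 3.55% of all genes, and 6 of 9 Nrf2 eyes lay above every control eye. The log2 change of 0.95 (SE 0.26) did not pass the threshold in edgeR (adjusted P = 0.0624). It was called in 4 of 16 alternatives, and in 0 of the 9 that each left out 1 mouse (adjusted P values of 0.0533 to 0.149 in edgeR). The 4 were DESeq2 (0.94, adjusted P = 0.000671), limma voom with quality weights (0.87, adjusted P = 0.0196), at least 10 counts required in every library (0.94, adjusted P = 0.0202), and no mouse as a block (0.91, adjusted P = 0.0355). The interaction of Nrf2 with age was 1.19 on the log2 scale (SE 0.44, unadjusted P = 0.0149, adjusted P = 0.9995 from edgeR).

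Best1 has a neighbour, Fth1, the ferritin heavy chain and a known target of Nrf2, which is read from the opposite strand and ends 76 bases from it. Their annotated exons share no bases, but Fth1 had 5141843 counts over the 32 libraries. Its median rose from 1579 CPM in control eyes to 4980 CPM in Nrf2 eyes at P20 (log2 change 1.595, SE 0.25, adjusted P = 0.0145) and from 2443 to 9741 CPM at P40 (1.75, SE 0.30, adjusted P = 0.00463). Whether reads of Fth1 enter the counts of Best1 was not tested.

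Kcnj13 (ENSMUSG00000079436, chromosome 1, 87386363 to 87394729) did not pass the threshold with Nrf2 in edgeR. At P20, it had 87.6 to 445 CPM (median 290) in control eyes and 238 to 417 CPM (median 288) in Nrf2 eyes, all within the range of the control eyes (log2 change 0.08, SE 0.28, adjusted P = 0.911). At P40, it had 230 to 1078 CPM (median 746) in control eyes and 278 to 701 CPM (median 319) in Nrf2 eyes. The Nrf2 eye had less Kcnj13 in 7 of 9 mice, and 5 of 9 control eyes lay above every Nrf2 eye.

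At P40, the log2 change of Kcnj13 was −0.85 (SE 0.27, adjusted P = 0.135), and it was called by DESeq2 (−0.86, adjusted P = 0.0266) and by limma voom (−0.96, adjusted P = 0.0130). The interaction of Nrf2 with age for Kcnj13 was −0.92 (SE 0.41, unadjusted P = 0.0364, adjusted P = 0.9995). Of the 12 RPE markers, 5 were called lower with Nrf2 at P40 (Rpe65, Lrat, Rgr, Rlbp1, and Rdh5, all genes of the visual cycle) and 1 at P20 (Rpe65). Their sum had a median of 39257 CPM in control eyes and 21523 CPM in Nrf2 eyes at P40 (12131 to 70954 and 14459 to 72883), against 22835 and 23040 CPM at P20, and its part in the values of Kcnj13 was not tested. Kcnj13 lies inside Gigyf2, which is read from the other strand, and 623 of its 1270 exon bases are shared with it. The kit is not stated to keep the strand, so reads in these bases could belong to either gene.

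The sodium pump subunit Atp1b1 had 311 to 757 CPM (median 563) in control eyes and 509 to 775 CPM (median 674) in Nrf2 eyes at P20, and 223 to 858 CPM (median 561) and 441 to 822 CPM (median 583) at P40. Its log2 change was 0.27 (SE 0.19, adjusted P = 0.485) at P20 and 0.06 (SE 0.19, adjusted P = 0.962) at P40. The Nrf2 eye was higher in 5 of 7 and in 5 of 9 mice. Of its 3081 exon bases, 575 are shared with Nme7 on the other strand.

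Trpm3, which is the host gene of the microRNA gene Mir204, had 195 to 428 CPM (median 376) in control eyes and 304 to 631 CPM (median 445) in Nrf2 eyes at P20. In 5 of 7 mice the Nrf2 eye had more Trpm3, and 4 of 7 Nrf2 eyes lay above every control eye. The log2 change was 0.35 (SE 0.21, adjusted P = 0.420), and among the alternatives it was called only by limma voom (0.61, adjusted P = 0.0442). At P40, it was −0.19 (SE 0.18, adjusted P = 0.779) and Trpm3 was lower in 6 of 9 Nrf2 eyes.

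The cotransporters and the chloride channel were not detectably changed. Slc12a2 had a median of 300.3 CPM in control eyes (162 to 477) and 238 CPM in Nrf2 eyes (139 to 343) at P20, and 231 (134 to 517) and 141 CPM (103 to 370) at P40. It was lower in the Nrf2 eye of 5 of 7 and 6 of 9 mice, with log2 changes of −0.35 (SE 0.27, adjusted P = 0.532) and −0.40 (SE 0.20, adjusted P = 0.465). Clcn2 had a median of 80.1 CPM in control eyes and 64.3 CPM in Nrf2 eyes at P20 and of 49.7 and 49.1 CPM at P40. Its log2 change was −0.23 (SE 0.31, adjusted P = 0.727) at P20 and −0.44 (SE 0.20, adjusted P = 0.398) at P40.

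Slc4a4 had a median of 190 CPM in control eyes and 205 CPM in Nrf2 eyes at P20, a log2 change of −0.05 (SE 0.17, adjusted P = 0.915). At P40, the medians were 111 and 147 CPM, and Nrf2 eyes spread from 41.5 to 337 CPM against 59.9 to 157 CPM in control eyes (0.33, SE 0.34, adjusted P = 0.819). Aqp1 had medians of 62.8 and 59.5 CPM at P20 (−0.14, SE 0.40, adjusted P = 0.887) and of 10.2 and 16.2 CPM at P40. It was higher in 6 of 9 Nrf2 eyes at P40 and the log2 change was 0.58 (SE 0.42, adjusted P = 0.683).

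P40 mouse 6 stood apart from the other P40 mice in several of these genes. Its Nrf2 eye had the lowest difference from the control eye for Aqp1 (−2.49 on the log2 scale), Slc4a4 (−1.91), Clcn2 (−1.65), and Best1 (0.35), and the highest for Kcne2 (1.21). The transgene followed the labels in this mouse, with 5117 CPM in the Nrf2 eye and 1.46 CPM in the control eye. Markers of the inner retina summed to 672 CPM in its Nrf2 eye, the highest of the Nrf2 eyes at P40, whose median was 116 CPM.

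**Figure D3:**
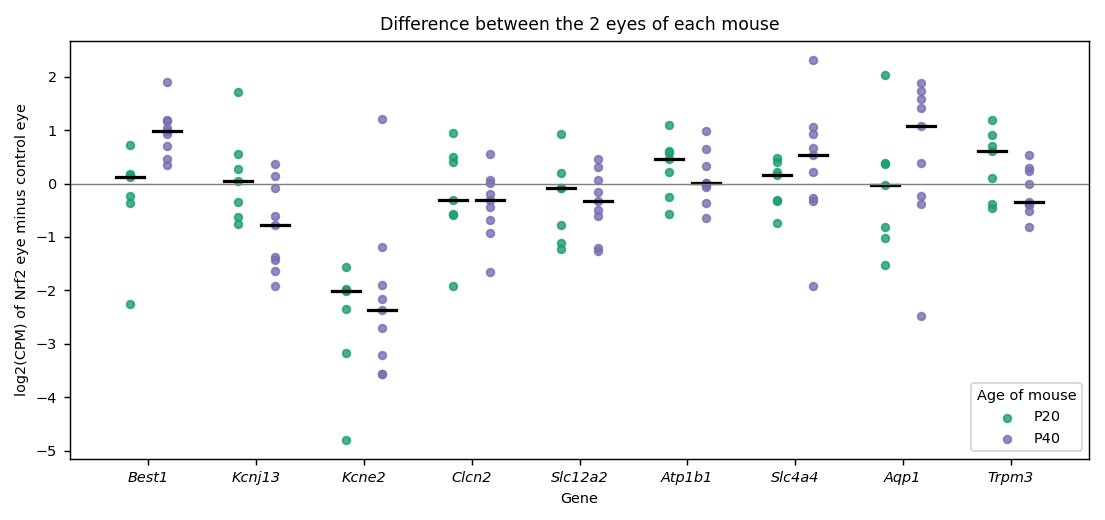
Difference in log2 CPM between the Nrf2 eye and the control eye of each mouse for the 9 genes, with 7 mice at P20 (green) and 9 mice at P40 (violet). Black bars are medians and the grey line marks no difference. All Kcne2 points but that of P40 mouse 6 lie below the line, at −1.19 or lower, and all 9 Best1 points at P40 lie above it.

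To follow the genes with age, 9 control eyes of P40 mice were set against 7 of P20 mice, and the Nrf2 eyes were compared between the ages in the same way. In control eyes, the potassium channel Kcnj13 and the cation channel Trpm3 rose and the bicarbonate cotransporter Slc4a4 and the water channel Aqp1 fell. Thus 4 of the 9 genes were called, against 14.8% of all genes tested (8.34% higher and 6.42% lower). In Nrf2 eyes, 0 of the 9 passed the threshold in edgeR, against 0.502% of all genes, and 2 had an unadjusted P value under 0.05 (25.8% of all genes). DESeq2 called 1 of the 9 and limma voom 2, but they called 1832 and 2213 of all genes, against 84 in edgeR. Since the ages are different mice, litter, handling, sequencing run, and, if the methods rather than the labels hold for P40, strain cannot be told apart from age.

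Aqp1 (ENSMUSG00000004655, chromosome 6, 55336432 to 55348555) changed most. It had 26.7 to 109 CPM (median 62.8) in control eyes at P20 and 4.00 to 39.8 CPM (median 10.2) at P40, and 8 of 9 eyes at P40 lay below every eye at P20. Its log2 change was −2.06 (SE 0.46, adjusted P = 0.0187), a level 0.240 times that at P20, and it was called in all 16 fits that each left out 1 control eye. In Nrf2 eyes, Aqp1 had 24.7 to 109 CPM (median 59.5) at P20 and 4.67 to 52.1 CPM (median 16.2) at P40, with 7 of 9 P40 eyes below every P20 eye.

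The log2 change of Aqp1 in Nrf2 eyes was −1.61 (SE 0.40, unadjusted P = 0.000858, adjusted P = 0.0818). It was called in 3 of 24 alternatives. These were DESeq2 (−1.62, adjusted P = 0.00489), limma voom (−1.53, adjusted P = 0.0222), and the fit without the Nrf2 eye of P40 mouse 1 (−1.96, adjusted P = 0.0248). Aqp1 is also expressed by endothelium, red blood cells, and the ciliary epithelium. Endothelial markers summed to a median of 128 CPM in control eyes at P20 (74.3 to 212) and 127 CPM at P40 (77.9 to 149), with 0 of 7 called in edgeR and 0 at an unadjusted P value under 0.05. Blood markers had medians of 1084 (514 to 3430) and 746 CPM (315 to 3300), with 1 of 5 called lower. Markers of the ciliary epithelium had 372 (5.86 to 664) and 75.9 CPM (15.04 to 170), with 1 of 5 called lower (Col9a1). The log2 change was negative for 5 of 5 ciliary, 5 of 5 blood, and 4 of 7 endothelial markers. The median log2 changes of these lists were −0.75, −0.24, and −0.19. Each marker of these lists was found in every group. The 8 markers of fibroblasts and mural cells went from a median sum of 856 CPM (219 to 1360) to 501 CPM (246 to 1159), with 7 of 8 negative and 3 called lower (Col1a1, −2.47, Col3a1, −1.88, and Col1a2, −1.06). Across the 32 eyes, with group means subtracted, Aqp1 had an r of 0.47 with this sum, 0.44 with the ciliary sum, 0.11 with the endothelial sum, and −0.41 with the blood sum. The parts of endothelium, fibroblasts and mural cells, blood, and ciliary epithelium in the decrease of Aqp1 were not tested.

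Slc4a4 (ENSMUSG00000060961, chromosome 5, 88886818 to 89239653) had 135 to 254 CPM (median 190) in control eyes at P20 and 59.9 to 157 CPM (median 111) at P40, and again 8 of 9 P40 eyes lay below every P20 eye. Slc4a4 fell, with a log2 change of −0.81 (SE 0.19, adjusted P = 0.0222). It was called in 15 of the 16 fits without 1 eye, and not without the control eye of P20 mouse 5 (−0.72, adjusted P = 0.0559). In Nrf2 eyes, the log2 change was −0.28 (SE 0.32, adjusted P = 0.593).

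Kcnj13 had 87.6 to 445 CPM (median 290) in control eyes at P20 and 230 to 1078 CPM (median 746) at P40, where 8 of 9 eyes lay above every eye at P20. The log2 change was 1.27 (SE 0.35, adjusted P = 0.0320), a level 2.40 times that at P20. In Nrf2 eyes, it had medians of 288 and 319 CPM and a log2 change of 0.39 (SE 0.22, adjusted P = 0.267). Trpm3 (ENSMUSG00000052387, chromosome 19, 22139046 to 22995410) had 195 to 428 CPM (median 376) in control eyes at P20 and 299 to 875 CPM (median 681) at P40, with 8 of 9 P40 eyes above every P20 eye (0.87, SE 0.23, adjusted P = 0.0303). In Nrf2 eyes, its medians were 445 and 554 CPM (0.27, SE 0.19, adjusted P = 0.375).

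Both increases lay close to the threshold and were called in 8 of the 16 fits without 1 control eye. Kcnj13 was not called without P20 mouse 1, 2, 3, 5, or 6 or P40 mouse 2, 3, or 5, with adjusted P values of 0.0521 to 0.0635 in these fits and a log2 change of 1.10 or more in all 16. Trpm3 was not called without P20 mouse 1, 2, 3, 5, or 7 or P40 mouse 2, 3, or 5 (adjusted P values up to 0.0630), with a log2 change of 0.75 or more in all 16. All 4 calls with age were lost when both P20 mouse 3 and P20 mouse 4 were left out, with log2 changes of −1.98 for Aqp1, −0.84 for Slc4a4, 1.38 for Kcnj13, and 0.92 for Trpm3 and adjusted P values of 0.0650 to 0.0873.

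The RPE markers stood beside Kcnj13 and Trpm3 as follows. Their sum had a median of 22835 CPM in control eyes at P20 (14297 to 31826) and 39257 CPM at P40 (12131 to 70954), and 10 of the 12 had a positive log2 change, with a median of 0.60. In edgeR, 1 was called higher (Ttr) and 2 lower (Pmel and Trpm1), and 8 had an unadjusted P value under 0.05. The control eye of P40 mouse 8 had the lowest level of its group for 8 of the 9 genes, the lowest RPE sum, and the fewest reads of its group (17721493). Without that eye, all 4 genes were still called. Across the 32 eyes, with group means subtracted, the RPE sum had an r of 0.83 with Kcnj13 and 0.73 with Trpm3. Its r was −0.31 with Aqp1 and −0.17 with Slc4a4. The sum of Muller glia markers, a list that shares Rlbp1 with the RPE list, had an r of 0.70 with Kcnj13 and 0.74 with Trpm3. With Aqp1 and Slc4a4 that sum had an r of 0.21 and 0.19. The parts of both sums in the change with age were not tested.

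The remaining genes did not pass the threshold between the ages. In control eyes, Best1 had a log2 change of −0.21 (SE 0.31), Kcne2 of 0.64 (SE 0.42), Clcn2 of −0.24 (SE 0.36), Slc12a2 of −0.23 (SE 0.27), and Atp1b1 of 0.13 (SE 0.24), with adjusted P values of 0.287 to 0.730. In Nrf2 eyes, Best1 had 0.85 (SE 0.37, unadjusted P = 0.0345, adjusted P = 0.164) and Kcne2 1.11 (SE 0.54, adjusted P = 0.202), which limma voom called (1.06, adjusted P = 0.0457). For the interaction of Nrf2 with age, 0 of the 9 genes passed the threshold, against 0.00557% of all genes. Best1 and Kcnj13 had an unadjusted P value under 0.05, as 2.39% of all genes did, and DESeq2 and limma voom called 0 of the 9.

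**Figure D4:**
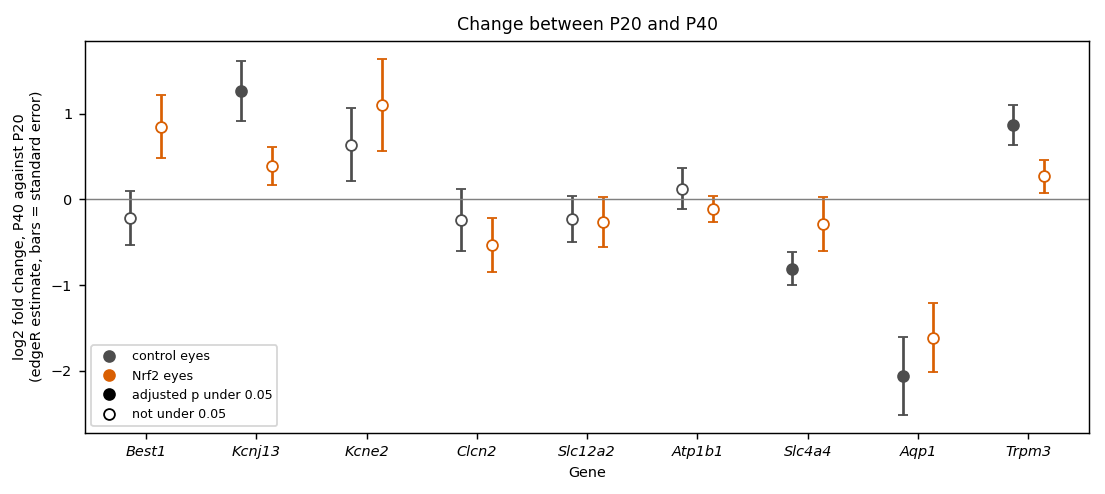
Log2 change from P20 to P40 for the 9 genes in control eyes (grey, 7 and 9 eyes) and Nrf2 eyes (orange, 7 and 9 eyes), with the standard error as bars. Filled points had an adjusted P value under 0.05 in edgeR, which held for Kcnj13, Slc4a4, Aqp1, and Trpm3 in control eyes and for no gene in Nrf2 eyes.

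To see which of the 9 genes varied together from eye to eye, log2 CPM values were correlated after subtracting the mean of each group, over 32 eyes of 16 mice that share depth, dissection, and the eyes of a mouse. Over the 36 pairs of genes, Pearson's r was between −0.46 and 0.83 with a median of 0.18, and 0.20 in control eyes alone. Kcnj13, Trpm3, and Atp1b1 varied together, with an r of 0.83 for Kcnj13 and Trpm3, 0.83 for Atp1b1 and Trpm3, and 0.72 for Kcnj13 and Atp1b1 (0.95, 0.88, and 0.86 in control eyes). In control eyes alone, Kcne2 also went with Trpm3, Atp1b1, and Kcnj13 (0.75, 0.73, and 0.71), against 0.29, 0.31, and 0.50 over all eyes. Clcn2 went with Atp1b1 (0.73), Trpm3 (0.56), and Slc12a2 (0.55), and Slc4a4 with Aqp1 (0.55). Best1 had an r of at most 0.22 with the others (Slc4a4, 0.48 in control eyes alone) and its lowest r to Kcne2 (−0.46). It was measured on 5 to 146 reads per library, and counting error weakens an r.

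Among the 11794 genes with sufficient reads, those whose pattern was most like that of a transport gene were taken by the same r. For Clcn2, these were Clic6 (0.98), Col9a3 (0.97), and Slc27a1 (0.96), and for Kcnj13, Rdh5 (0.95), Sostdc1 (0.94), and Rrh (0.93). Atp1b1 was most like Tspan3 (0.97) and Trpm3 most like Tmem98 (0.93). For Kcne2, they were Crx (0.81), Chgb (0.80), and Nxnl1 (0.80), of which Crx is a transcription factor of photoreceptors. Aqp1 was most like Esyt1 (0.85) and Thbd (0.84), Slc4a4 most like Pkdcc (0.77), and Best1 most like Entpd2 (0.69).

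**Figure D5:**
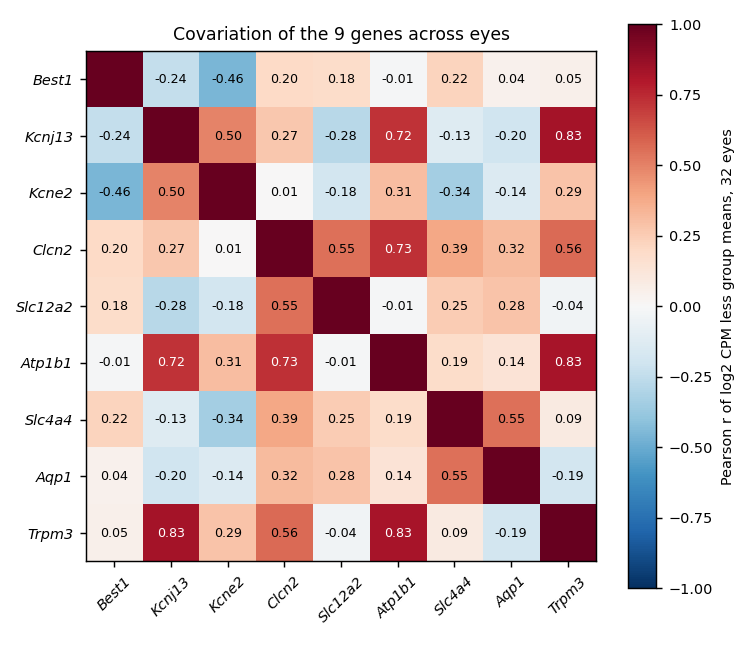
Pearson's r between the 9 genes over 32 eyes, of log2 CPM with the mean of each of the 4 groups subtracted, with red for positive and blue for negative values. Kcnj13, Atp1b1, and Trpm3 form a block with an r of 0.72 to 0.83, and Best1 and Kcne2 have the lowest r (−0.46).

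Ion and water transport in the RPE involves many more genes, of which 90 were listed in 8 classes. With Nrf2 at P20, 4 of the 85 tested rose and 1 fell, against 3.41% of all genes called (0.485% lower), with a median log2 change of −0.15. Slc20a1, a sodium-phosphate cotransporter, rose from a median of 41.3 to 98.9 CPM (log2 change 1.37, SE 0.23, adjusted P = 0.0189). Stim1, the calcium sensor of store-operated calcium entry, rose by 0.91 (adjusted P = 0.0224) and Slc26a7, an anion exchanger and chloride channel, by 0.84 (adjusted P = 0.0428), and the chloride intracellular channel Clic4, named after its values were seen, by 0.56 (adjusted P = 0.0459). Kcnj8, the pore subunit Kir6.1 of ATP-sensitive potassium channels and also a gene of pericytes, fell from 46.4 to 14.4 CPM (−1.59, SE 0.32, adjusted P = 0.0337).

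At P40, 2 of 83 tested rose with Nrf2 and 3 fell, against 4.57% of all genes called (1.23% lower), with a median of −0.07. Slc20a1 rose again, from 29.3 to 99.6 CPM (1.32, SE 0.22, adjusted P = 0.00413), and Cftr, a cAMP-regulated chloride channel, from 1.23 to 3.48 CPM (1.45, SE 0.26, adjusted P = 0.00623). Kcnj8 fell again, from 55.1 to 14.1 CPM (−1.94, SE 0.23, adjusted P = 0.000364), beside Wnk4, a kinase that regulates cation chloride cotransport (−1.16, adjusted P = 0.0160), and Trpv4, an osmosensitive calcium channel named after its values were seen (−0.82, adjusted P = 0.0402). Of the 8 markers of fibroblasts and mural cells, the class that includes pericytes, 6 had a positive log2 change with Nrf2 at each age. At P20, 1 of them was called lower (Rgs5, a pericyte gene, −1.35, adjusted P = 0.0414) and at P40 1 was called higher (Col3a1, 1.13, adjusted P = 0.0459). Rgs5 at P40 had a log2 change of 0.27 (adjusted P = 0.879), and Pdgfrb, also a pericyte gene, had −0.21 at P20 and −0.12 at P40. The marker sum had a median of 856 CPM in control eyes (219 to 1360) and 1009 CPM in Nrf2 eyes (437 to 1777) at P20, and 501 (246 to 1159) and 547 CPM (299 to 1124) at P40. The part of these cells in the change of Kcnj8 was not tested.

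Between P20 and P40 in control eyes, 6 of 85 were called, against 14.8% of all genes. All 6 were lower, against 6.42% of all genes, a share close to that of the list, and the median log2 change was −0.32 against 0.00 over all genes. They included Trpm1, a cation channel of RPE and pigment cells (1314 to 483 CPM, −1.26, adjusted P = 0.0274), Ano1, a calcium-activated chloride channel (−1.22, adjusted P = 0.0270), and Stim1 (−1.14, adjusted P = 0.0114). Of the 18 potassium channels tested, 16 had a negative log2 change, with a median of −0.79. Kcnj13, in the same class of channel, was higher at P40. In Nrf2 eyes, 1 of 85 was called, against 0.502% of all genes, and this was Trpm1 (−1.34, adjusted P = 0.04996 from edgeR).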

How the data were processed

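The authors amplified polyA RNA of RPE (Ultra Low v4 kit) and deposited 1 table of estimated counts for each gene as whole numbers, with no scaling for depth or transcript length. The submitters' processing notes name Salmon 0.9.1, and the methods name the mm10 genome with Ensembl annotation, STAR and featureCounts, and Salmon with tximport and DESeq2, while the table does not name its counter. Libraries came from 2 sequencing runs that are not assigned to libraries.

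The tests were edgeR 4.0.16 quasi-likelihood fits in R 4.3.3 after filterByExpr and TMM. Mouse entered as a block where its eyes were compared, and no block was used between the ages. Adjusted P values are Benjamini-Hochberg values across the 16303 to 17959 genes of each comparison (threshold 0.05), and each SE follows from the log2 change and its F statistic. CPM used TMM library sizes, and log2 CPM a prior count of 2. The pairing of eyes comes from the labels and methods. Over all genes, both eyes of the same mouse deviated from the group means with an average r of 0.0213 (P20) and 0.0990 (P40).

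Libraries were compared by the median squared difference of their count shares over genes with a mean of at least 100 counts, relative to that from sampling alone. Gene positions and lengths were taken from GENCODE for GRCm38. The named genes were the 9 members, up to the 4 called genes with the largest absolute log2 change in the list of 90 transport genes for each comparison, and, by pattern, the 3 most similar genes with a mean log2 CPM of at least 2. A few genes that this rule names are not reported here. Alternatives were DESeq2 1.42.0, limma 3.58.1 voom with quality weights, RLE normalization, no filter, at least 10 counts in every library, robust dispersion, fits with or without a block, and leaving out eyes or mice. The test was first run on simulated data. The genes, the lists, and the motifs were chosen with earlier results of these data known. RNA was amplified and carries no molecular identifiers, so limits from counts cover counting error only.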

Additional observations from a re-analysis of the deposited data

Results flagged for a closer look

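Each gene was examined in the 4 groups of eyes and in the differences between eyes at each age, 54 sets of values in all, for 1 value far from the rest of its set. The gap to the nearest value, as a share of the range, exceeded Dixon's critical value in 7 sets, and chance flags about 1 in 20.

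In the control eye of P20 mouse 5, Kcnj13 was at 87.6 CPM (next lowest 229 CPM), Clcn2 at 34.5 CPM (next lowest 63.0 CPM), and Trpm3 at 195 CPM (next lowest 305 CPM). This eye had the lowest RPE marker sum of its group, 14297 CPM. Without it, the increases of Kcnj13 (log2 change 1.10, adjusted P = 0.0602 from edgeR) and Trpm3 (0.76, adjusted P = 0.0630) and the decrease of Slc4a4 (−0.72, adjusted P = 0.0559) with age were not called. In the Nrf2 eye of P20 mouse 2, the library with the fewest reads (16548332), Clcn2 was at 25.5 CPM, against 62.5 CPM in the next lowest eye. Best1 had 5 counts in that library, and its difference from the control eye was −2.26 on the log2 scale, against −0.37 in the next lowest mouse. In the control eye of P40 mouse 8, Atp1b1 was at 223.0 CPM, against 528 CPM in the next lowest eye. In P40 mouse 6, the difference between the eyes for Kcne2 was 1.21 on the log2 scale, against −1.19 in the next highest mouse.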

How the results depend on the processing

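Of the 924 values of log2 change recomputed for the 9 genes under the alternatives, 884 kept their side of the threshold, 29 lost a call, 11 gained one, and no called value changed sign. For Nrf2 at P20, 2 of the 9 genes were called with limma voom (Kcne2 and Trpm3), beside 2605 calls over all genes (556 in edgeR). With each mouse left out, 0 to 1 were called, beside 111 to 1999 over all genes. For Nrf2 at P40, 3 were called with DESeq2 (1380 over all genes) and 3 with limma voom (1327), which were Kcne2, Best1, and Kcnj13. With at least 10 counts in every library (648) and with no replicate block (716), 2 were called (Kcne2 and Best1). The main fit in edgeR called 762 over all genes. With age in control eyes, 2 were called without a filter (914 over all genes, 2483 in the main fit) and 0 without both P20 mice 3 and 4 (158). With each eye left out, 1 to 4 were called (473 to 4273 over all genes). In Nrf2 eyes, 1 was called with DESeq2 (1832 over all genes, 84 in the main fit) and 2 with limma voom (2213). With each Nrf2 eye left out, 0 to 1 were called (21 to 190 over all genes). For the interaction of Nrf2 with age, 0 were called under every alternative.

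The mice at the ages share only a number, so pairing them by number has no basis in the design. A replicate block of the numbers 1 to 7 left 0 of the 4 calls with age in control eyes and 191 of 2483 calls over all genes. For Nrf2 against control, where the block is the mouse, fitting no replicate block moved the calls over all genes from 556 to 1093 at P20 and from 762 to 716 at P40. The cause was not tested. Over all genes, calls ranged from 111 (without mouse 7) to 2605 (limma voom) at P20, from 521 to 1380 at P40, from 158 to 4383 with age in control eyes, and from 3 to 2213 with age in Nrf2 eyes. Depth limits Best1 most, with 5 to 146 counts a library.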
